A study of Gallus gallus with 8 samples.

Results

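Interferons are secreted proteins that put cells into an antiviral state, and the genes described here are the chicken interferons IFNB, IFNL3 and IFNG together with 6 proteins that switch them on or carry their signal. They were taken by symbol from the deposited gene count table, where all 9 listed symbols were present among 26296 genes. IFIH1 (also called MDA5) and DHX58 (LGP2) bind viral RNA in the cytoplasm, and in chicken, which lacks RIG-I, IFIH1 is the main sensor of this kind. IRF7 and IRF1 are transcription factors that switch on interferon genes and their targets, IRF8 is a related factor of macrophages, dendritic cells and B cells, and STAT2 carries the signal from the receptors of type I interferon (IFNB) and type III interferon (IFNL3) to the nucleus. Type II interferon, IFNG, comes from T and NK cells.

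The libraries came from the trachea of chickens aged 42 days. In the exposed group, the air held hydrogen sulfide (H2S), kept from week 0 to week 3 between 3.5 and 4.5 mg/kg and from week 4 to week 6 between 19.5 and 20.5 mg/kg, while the control birds lived in a chamber without added gas. The labels give no strain, sex, allele or other agent, and they do not say whether a library came from 1 bird or from a pool. Each group had 1 mRNA library, numbered 3 in both, so no test between conditions was possible, and every interval below covers counting error only and compares 2 libraries.

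The H2S library held 20839798 counts and the control library 18875586, and the 10 highest genes took 4.84% and 4.80% of them. The epithelial markers EPCAM and CDH1 and the cartilage gene COL2A1 were abundant in both, and HINTW and SPINW, genes of the female W chromosome, had 0 counts in both. Muscle and cartilage RNA was higher in the H2S library, with summed levels of 17290 against 10950 TMM-scaled CPM (counts per 1000000 counts of the scaled library) for 12 skeletal muscle genes and 25410 against 19640 CPM for 12 cartilage genes. Median ratios were 0.945 over 11 measured epithelial markers, 0.965 over 10 endothelial ones and 1.57 over 7 heterophil and granulocyte ones. Summed levels of the 3 lists, with unmeasured genes, were 1095 against 1237, 1241 against 1332 and 757 against 798 CPM. The granulocyte sum was thus lower with H2S though the median was above 1, and most of it was LYG2 (719 against 773 CPM). The part of any of these cells in the results below was not tested. TMM is a scaling that assumes most genes do not differ. In whole tissue, more cells of a type and more RNA per cell cannot be told apart.

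Most of these genes were higher in the H2S library. Of the 9, 6 had a ratio of H2S over control of at least 2 (IFNB, IFIH1, DHX58, IRF7, STAT2 and IRF1), IRF8 lay within 2-fold, and IFNG and IFNL3 had under 20 counts in both libraries and were too low to be counted. None of the 7 measured genes had a ratio of at most 0.5. Among the 15268 genes with at least 20 counts in 1 library, 4.71% had a ratio of at least 2 and 3.71% one of at most 0.5, and the median ratio was 0.9995. IFNB had 0 control counts and reached the count minimum through the H2S library alone, so it could enter the count only as at least 2-fold higher.

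**Figure D1:**
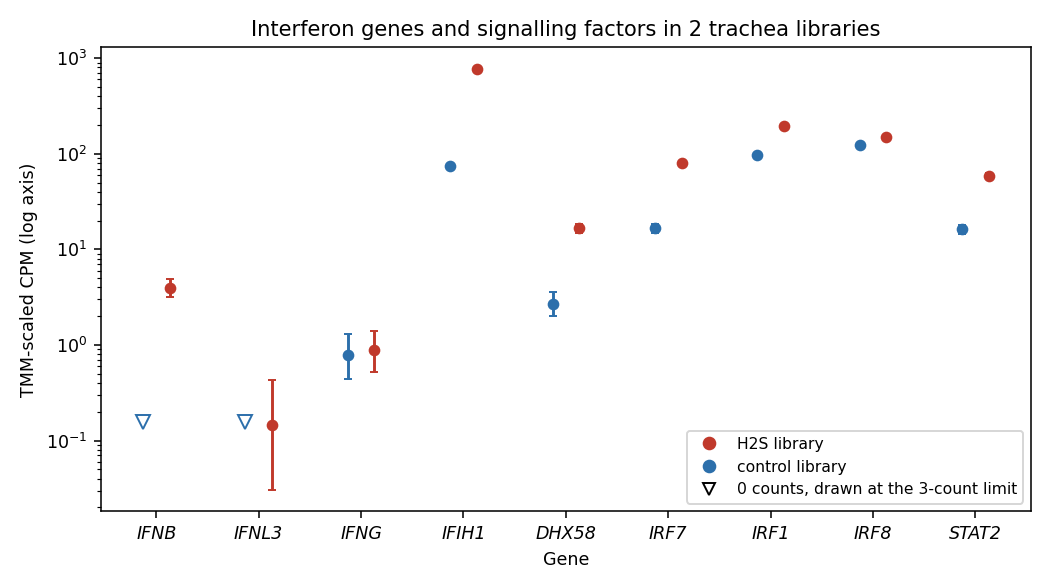
Level of each gene in the H2S library (red) and the control library (blue), in TMM-scaled CPM on a log axis, with 95% exact Poisson intervals that cover counting error only. Open triangles stand for 0 counts, drawn at the level of 3 counts. Among genes with counts in both libraries, the 2 libraries lie closest together for IFNG and IRF8. The control triangle of IFNL3 (0 counts, drawn at 0.1562 CPM) lies just above its H2S point (3 counts, 0.1465 CPM), so that pair shows no order.

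Among the interferons themselves, a clear difference was seen for IFNB. It had 81 counts in the H2S library, a level of 3.96 CPM (95% exact Poisson interval 3.14 to 4.92), and 0 counts in the control library. A floor of 3 counts in the control library is a level of 0.156 CPM, and the exact Poisson interval of 0 counts reaches 0.192 CPM. Against the floor, with no counting error in the 81 counts, IFNB was at least 25.3-fold higher in the H2S library, and the lower end of the exact counting interval of its ratio was 20.1. RefSeq files the same gene (NCBI Gene 554219) under the symbol IFNW1 and lists IFNB as another name.

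The other interferon genes that could be found by name were at or near 0. A search for 11 interferon names, some of them other names of IFNB or IFNL3, gave 2 genes beyond the 9. An interferon gene that was not found has no value here, which is not a count of 0. IFNL3, a type III interferon that acts mainly on epithelia and that RefSeq calls IFNL3A, had 3 counts with H2S and 0 without, and no ratio is given. The type I genes IFNA3 and IFNKL1 (listed as LOC101750245) had 0 counts in both libraries. Chicken IFN-alpha genes are near-identical copies, and how reads with several matches were counted is not given in the sources used here, so the 0 of IFNA3 is uncertain.

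IFNG stood apart from IFNB in having reads in both libraries. It had 18 counts with H2S and 15 without, levels of 0.879 CPM (0.521 to 1.39) and 0.781 CPM (0.437 to 1.29). The ratio of 1.12 had a counting interval of 0.536 to 2.40, so a difference within that range could not be detected from these counts. Markers of the cells that make IFNG were mostly lower in the H2S library. Of 12 measured cytotoxic and NK cell markers, 6 had ratios of at most 0.5 and 0 of at least 2. The shares of all measured genes were 3.71% and 4.71%. The summed level over all 13 markers in the table was 115 against 162 CPM, with no marker at 0. The T-bet gene TBX21 (listed as LOC100858002) and EOMES, factors that drive IFNG in T and NK cells, had ratios of 0.390 (0.289 to 0.522) and 0.338 (0.267 to 0.426), and perforin (PRF1) one of 0.370 (0.225 to 0.590). Among 13 general T cell markers 11 had ratios below 1, where the median ratio of all measured genes was 0.9995. Their summed levels were 194 and 235 CPM. That 0 of the 13 lay beyond 2-fold is near the shares of all measured genes. The part of these cells in the IFNG value was not tested.

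IFIH1, the sensor of long double-stranded RNA, had the highest ratio of the genes with reads in both libraries. It was at 15735 counts with H2S and 1432 without, or 768 CPM (756 to 780) against 74.6 CPM (70.7 to 78.5). The ratio was 10.3 (9.76 to 10.9), the 40th highest of the 15268 measured genes. Of 834 measured genes with a mean level within 2-fold of that of IFIH1, 3 had a ratio as high. DHX58, a helper of IFIH1 that binds RNA but lacks its signalling domains, had 339 counts against 52, or 16.6 CPM (14.8 to 18.4) against 2.71 CPM (2.02 to 3.55). Its ratio was 6.11 (4.56 to 8.35), reached by 8 of 3748 genes of like level.

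The difference in IFIH1 exceeded that in DHX58. The ratio of IFIH1 was 1.69 times that of DHX58 (exact conditional interval 1.23 to 2.28, counting error only), a comparison that does not depend on scaling. It was also 3.04 times (2.79 to 3.32) that of TLR3, the endosomal sensor of double-stranded RNA, a pairing chosen after the values were seen.

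IRF7, which serves chicken in place of the IRF3 and IRF7 pair of mammals, had 1658 counts with H2S and 318 without. These were levels of 81.0 CPM (77.1 to 84.9) and 16.6 CPM (14.8 to 18.5), a ratio of 4.89 (4.33 to 5.53), and 9 of 4634 genes of like level had a ratio as high. IRF1, a factor induced by IFNG and by type I interferon, had 3993 counts against 1863, or 195 CPM (189 to 201) against 97.0 CPM (92.6 to 101). Its ratio of 2.01 (1.90 to 2.12) lay at the 2-fold line and was 1.94 when libraries were scaled by total counts, which leaves 5 genes at 2-fold or more. Of 2964 genes of like level, 58 had a ratio as high as that of IRF1.

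IRF8 showed the smallest difference among the measured genes. It had 3050 counts with H2S and 2353 without, or 149 CPM (144 to 154) against 123 CPM (118 to 128). The ratio was 1.22 (1.15 to 1.28). The counting interval of each of the 7 measured genes lay above 1, but so did that of 27.6% of all measured genes, and 15.8% of 3146 genes of like level had a ratio at least as high as that of IRF8. SPI1, which encodes the partner factor PU.1, had a ratio of 1.11 (1.02 to 1.21), and the IRF8 ratio was 1.10 times it (0.988 to 1.21), a pair picked after the values were seen. Of 16 measured macrophage and dendritic cell markers, 1 had a ratio of at least 2 and 3 of at most 0.5. The shares of all measured genes were 4.71% and 3.71%, so the 1 higher marker is near its share. Summed levels of these markers were 334 against 338 CPM, with no marker at 0. The marker above 2 was TIMD4, a receptor for dying cells, at 3.24 (2.52 to 4.21). The markers at most 0.5 were FLT3 and XCR1, of dendritic cells, at 0.345 and 0.475, and the scavenger receptor MARCO at 0.414. Of 11 measured B cell markers, 2 had a ratio of at least 2 and 2 one of at most 0.5, with a median of 1.11. Those beyond 2-fold were PAX5 and CXCR5, with ratios of 4.26 and 4.67, and IGLL1 and IGJ, with 0.235 and 0.202. Summed levels of the 11 B cell markers were 1657 against 6588 CPM. Most of this was IGLL1 (867 against 3686 CPM) and IGJ (555 against 2749 CPM). The part of these cells in the IRF8 value was not tested.

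STAT2 had 1207 counts with H2S and 312 without. These were 58.9 CPM (55.7 to 62.4) and 16.2 CPM (14.5 to 18.1), with a ratio of 3.63 (3.20 to 4.12), reached by 28 of 4682 genes of like level. STAT2 acts in a complex that in mammals contains IRF9. The gene listed as IRF9 had a ratio of 3.98 (3.01 to 5.32), from 267 against 63 counts. The ratio of STAT2 was 0.913 times that of IRF9 (0.664 to 1.24), a pairing chosen after the values were seen. RefSeq gives IRF10 as another name of the gene listed as IRF9, so its role as the mammalian IRF9 is uncertain.

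**Figure D2:**
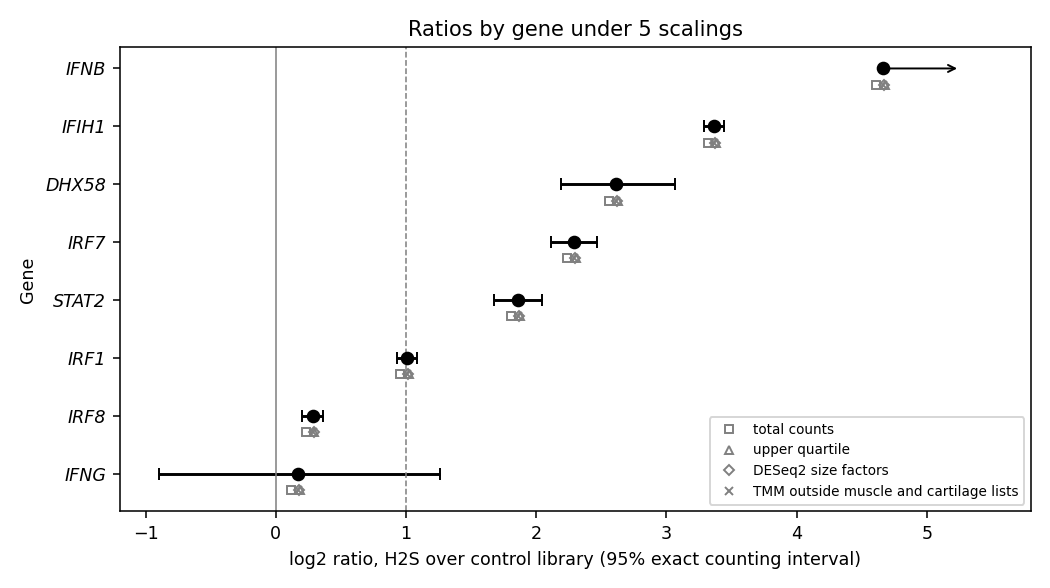
log2 ratio of H2S over control for each gene with a ratio, under TMM scaling (black, bars are 95% exact counting intervals) and under 4 other scalings (grey). IFNB is drawn at its ratio over a floor of 3 counts (arrow), and the lower end of its counting interval, 20.1, is not drawn. The dashed line marks 2-fold, and IRF1 lies on it.

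Ordered by ratio after IFNB, the genes ran IFIH1, DHX58, IRF7, STAT2, IRF1, IRF8 and IFNG. Most steps in this order exceeded the counting error. IRF7 was above STAT2 by 1.35 times (1.13 to 1.61), STAT2 above IRF1 by 1.81 times (1.57 to 2.08), and IRF1 above IRF8 by 1.65 times (1.53 to 1.79). DHX58 and IRF7 were not told apart (1.25 times, 0.907 to 1.75), and neither were IRF8 and IFNG (1.08 times, 0.506 to 2.28).

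**Figure D3:**
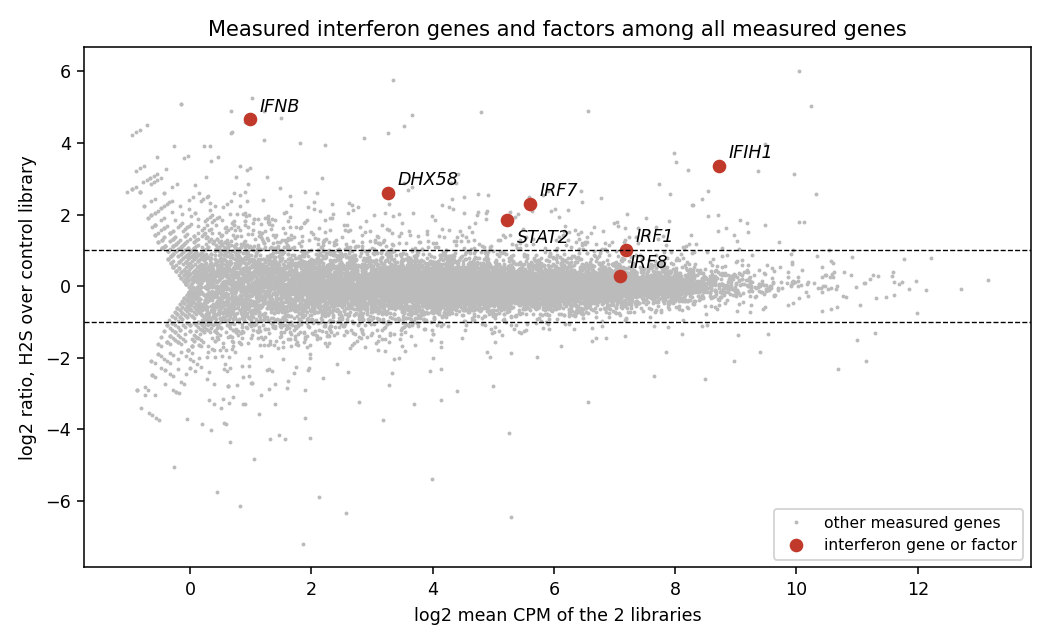
log2 ratio of H2S over control against log2 mean CPM of the 2 libraries for 15268 measured genes (grey), with the 7 measured interferon genes and factors in red and dashed lines at 2-fold. IFIH1, DHX58, IRF7 and STAT2 lie above nearly all genes of like level, IRF1 lies at the upper line and IRF8 within the cloud. IFNB is drawn at its ratio over a floor of 3 counts. It had 0 control counts and reached the count minimum through the H2S library alone, so it could only lie above the upper line.

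Among genes with a symbol, those closest to IFIH1 in level over the 2 libraries were MX1, CMPK2 and USP18, all known interferon-induced genes. Genes listed only under a LOC number were left out of this search. They lay at distances of 0.51, 0.66 and 0.67 in the plane of the 2 log2 CPM values, with ratios of 6.37 (6.07 to 6.68), 9.51 (8.93 to 10.1) and 5.38 (5.14 to 5.64). Those closest to DHX58 were ZP1, KLHL10 and IRF9, at distances of 0.28, 0.42 and 0.44 and with ratios of 4.93, 6.47 and 3.98. Of these, IRF9 is in the pathway lists described below, and ZP1 and KLHL10, the nearer genes, are not. A likeness over 2 libraries is a description only.

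Genes next to the 6 that were at least 2-fold higher were, with 1 exception, within 2-fold, as were most measured genes. Of all measured genes, 4.71% had a ratio of at least 2 and 3.71% one of at most 0.5. The counts of flanking genes below are near these shares. In the gene order of the RefSeq GRCg7b assembly, used for order alone, the 24 nearest measured genes around these 6 had ratios of 0.704 to 3.37 with a median of 1.12, and the 36 around all 9 had a median of 1.02, with 1 at 2 or above and 2 at 0.5 or below. The 4 around IFIH1 ranged from 0.938 (KCNH7) to 1.22 (GCG), and the 4 around IFNB from 0.923 (UBE2R2) to 1.20 (UBAP1). LOC425462, beside IRF7, was the 1 at 2 or above, with 356 against 99 counts and a ratio of 3.37 (2.69 to 4.26). At the low end were IL22, a cytokine gene beside IFNG, with 6 against 23 counts (ratio 0.245, 0.0815 to 0.618), and LOC424014, beside IFNL3, with 8 against 52 (0.144, 0.0592 to 0.306). Strandedness is not given in the sources used here, so a gene cannot be separated from one that overlaps it or lies antisense to it.

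The wider pathway was covered by lists for sensing, receptors, kinases and STAT factors, other IRF factors, feedback regulators, effectors and IFNG response genes, with 99 measured genes in all. Of these, 38 had a ratio of at least 2 and 2 a ratio of at most 0.5, beside the 4.71% and 3.71% of all measured genes. The lists were chosen with earlier results of these data known, and 18 of the 38 were in the effector list.

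In the sensing list, 8 of 23 measured genes were at least 2-fold higher in the H2S library and 0 at least 2-fold lower. Over all measured genes these shares were 4.71% and 3.71%, so the 0 is near its share. The median ratio of the list was 1.32. The highest were EIF2AK2, the RNA-activated kinase PKR, at 7.24 (6.78 to 7.74), DDX60 at 5.97 (5.63 to 6.33) and ZC3HAV1, the antiviral zinc finger protein ZAP, at 4.77 (4.55 to 5.01). Many of these genes are known interferon targets as well as sensors. MAVS, TBK1 and IKBKE, of the steps between the sensor and IRF7, were lower in ratio than IFIH1 and IRF7. These genes and MYD88 are named after their values were seen. MAVS, the mitochondrial adaptor of IFIH1, had a ratio of 0.768 (0.697 to 0.846), and TBK1, the kinase that activates IRF7, one of 1.28 (1.19 to 1.37). The related kinase gene IKBKE had a ratio of 2.58 (2.21 to 3.01), and MYD88, the adaptor of most Toll-like receptors, 3.14 (2.98 to 3.31).

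All 5 measured interferon receptor genes were within 2-fold, with a median ratio of 0.980. Most measured genes were within 2-fold too, as 4.71% had a ratio of at least 2 and 3.71% one of at most 0.5. IFNAR2, a chain of the type I receptor, was highest with 2087 against 1423 counts and a ratio of 1.38 (1.29 to 1.47). IFNLR1, the chain specific to type III interferon, was lowest with 340 against 475 counts and a ratio of 0.671 (0.582 to 0.773). Named after their values were seen, IFNAR1 had a ratio of 0.963 (0.894 to 1.04), IFNGR1 0.980 (0.924 to 1.04) and IFNGR2 1.05 (0.989 to 1.12).

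Of the 9 Janus kinases and other STAT genes, 2 were at least 2-fold higher and 0 lower, with a median ratio of 1.11. Beside 4.71% and 3.71% of all measured genes, the 0 is near its share. Among the 2 higher genes was STAT4, which answers interleukin-12 and type I interferon, at 2.70 (2.49 to 2.94) from 2134 against 740 counts. The kinases JAK1 and TYK2, which sit on the type I receptor, had ratios of 1.02 (0.996 to 1.06) and 0.979 (0.842 to 1.14), and are named after their values were seen.

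Of the 8 other IRF genes and partners, IRF9 was at least 2-fold higher and IRF4 at least 2-fold lower, with a median ratio of 1.26. As 4.71% and 3.71% of all measured genes were so, 1 of 8 in each direction is not read as a result. IRF4, needed for plasma cells, had 751 against 1632 counts and a ratio of 0.432 (0.395 to 0.471), and the plasma cell gene IGJ was lower in the same library, at 11375 against 52809 counts. The part of plasma cells in the IRF4 value was not tested. IRF2, a relative of IRF1 that can compete with it on DNA, had a ratio of 1.83 (1.74 to 1.93), and that of IRF1 was 1.10 times as high (1.02 to 1.18), a pair chosen after the values were seen.

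Feedback regulators had 5 of 20 measured genes at least 2-fold higher and 0 lower, with a median ratio of 1.08. Shares over all measured genes were 4.71% and 3.71%, and the 0 is near the latter. SOCS1, an inhibitor of Janus kinases, had 710 against 90 counts and a ratio of 7.40 (5.94 to 9.32). USP18, which blocks signalling at the type I receptor, was at 5.38, and NMI, a partner of STAT proteins, at 3.10 (2.93 to 3.28). The phosphatase genes PTPN1, PTPN2, PTPN6 and PTPN11 were within 2-fold, at 0.889, 0.974, 0.819 and 1.08, named after their values were seen.

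Effector genes downstream of the STAT complex had 18 of 21 measured members at least 2-fold higher and 0 lower, with a median ratio of 5.45. RSAD2, IFIT5 and HELZ2 were highest at 64.6, 32.9 and 15.6. For this list and the next, the shares of all measured genes were 4.71% higher and 3.71% lower, so 0 or 1 lower gene is near its share. Response genes best known from IFNG had 6 of 15 at least 2-fold higher and 1 lower, with a median ratio of 1.33. Highest among them were IL12B at 3.33 (2.004 to 5.78), CD274, which encodes PD-L1, at 2.61 (2.40 to 2.85) and VCAM1 at 2.57 (2.43 to 2.72), and GBP7 had 0 against 167 counts. CIITA (listed as LOC416633), the switch of MHC class II genes, had a ratio of 1.32 (1.23 to 1.43), and CD74, one of its targets, 0.698 (0.683 to 0.712), both named after their values were seen.

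**Figure D4:**
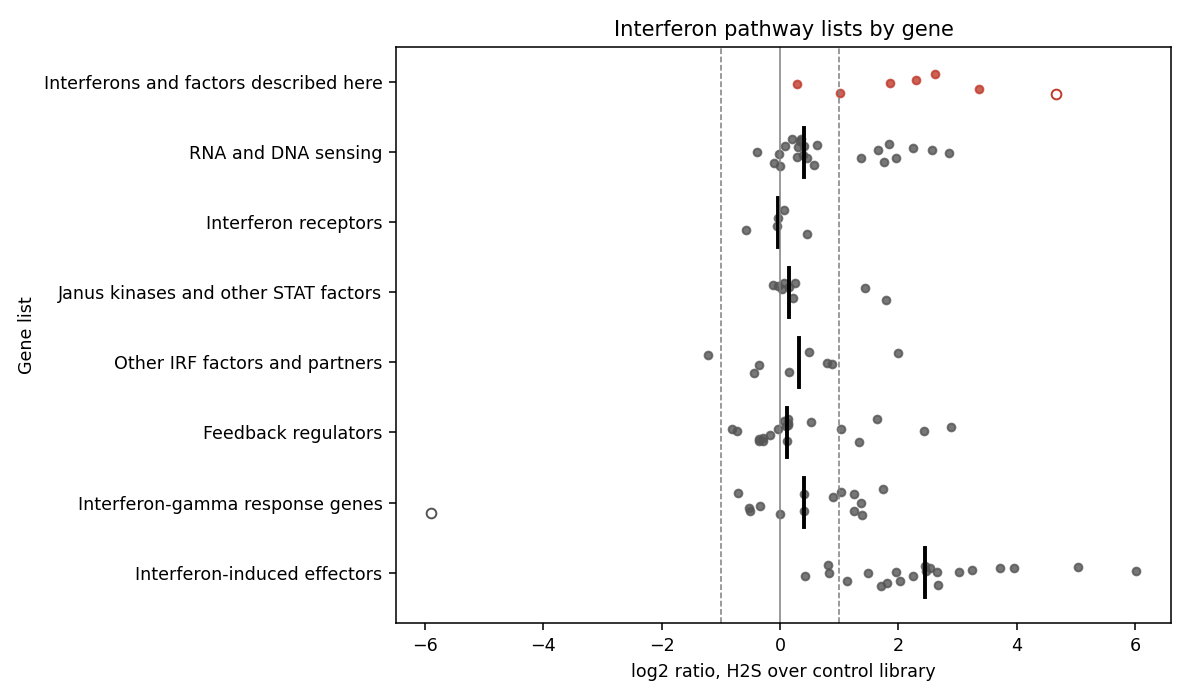
log2 ratio of H2S over control for each measured gene, by list, with the interferons and factors described here in red, a black bar at the median of each other list and dashed lines at 2-fold. Open circles are bounds of genes with 0 counts in 1 library (IFNB and GBP7), and the receptor genes all lie between the dashed lines.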

How the data were processed

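Gene counts of 1 H2S and 1 control mRNA library, as deposited by the authors, were raw counts per gene. HISAT2 is named in the submitters' processing notes, and no version, genome build, annotation, counting tool or strandedness was found (not given in the sources used here). The small RNA counts and promoter sequences were not analysed here. Counts were divided by TMM effective library sizes (edgeR 4.0.16, R 4.3.3). Ratios are H2S over control with 95% exact Clopper-Pearson bounds on the share of a gene's counts that fell in the H2S library (SciPy 1.17.1), and levels have exact Poisson intervals. Both cover counting error only. A gene was called measured at 20 or more counts in either library, and 0 counts were replaced by a floor of 3 in ratios. No test between conditions was made. Symbols absent from the table were looked up in RefSeq GRCg7b, which was also used for gene order.

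The members, lists and tests were chosen with earlier results of these data known. The naming rule took all 9 members and up to 3 highest and 3 lowest genes of each list beyond 2-fold (or the highest and lowest where none was). It also took the 3 nearest genes with a symbol of 2 members and flanking genes beyond 2-fold. Alternatives were other scalings (total counts, upper quartile, DESeq2 1.42.0 size factors, TMM outside muscle and cartilage genes), 0.5 added to each count, and count minimums of 50 and 1. A result for 1 further gene of the lists is not reported here.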

Additional observations from a re-analysis of the deposited data

How the results depend on the processing

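The 5 alternatives in scaling or in added counts gave 35 recomputed ratios for IFNG, IFIH1, DHX58, IRF7, IRF1, IRF8 and STAT2, all within their counting intervals. Each other scaling shifts every ratio by the same factor, from 0.966 (total counts) to 1.009 (upper quartile), so these values are not separate checks. The 2 other count minimums cannot change a ratio. The number of the 9 genes at 2-fold or above was 6 under each alternative except scaling by total counts, where it was 5 because IRF1 fell to 1.94. Ratios ranged from 9.95 to 10.4 for IFIH1, from 5.91 to 6.17 for DHX58, from 4.72 to 4.93 for IRF7 and from 3.50 to 3.66 for STAT2. The value for IFNB depends on how 0 counts are treated, and was 153 with 0.5 added to each count, which is no bound, and 24.5 or more over the floor of 3 counts under each scaling. Of the pathway genes, 36 to 38 were at 2-fold or above. The depth leaves IFNG and IFNL3 unresolved. No paired analysis was possible because each group had 1 mRNA library and no test was made.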
